A study of Mus musculus with 9 samples.

Results

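Oxidative phosphorylation, the pathway by which mitochondria make ATP, was followed in testis RNA as every row of the table whose gene symbol starts with Nduf, Sdha to Sdhd, Uqcr, Cox followed by a digit, Atp5 or mt-, together with the cytochromes c Cycs and Cyct. This rule gave 137 of 38685 genes and loci, of which 106 are encoded in the nucleus and 31 by the mitochondrial genome. Of the nuclear members, 46 belong by their names to complex I (7 core subunits, 31 accessory subunits and 8 assembly factors), 8 to complex II and its assembly, 8 to complex III, 25 to complex IV (18 subunits and 7 assembly factors), 17 to complex V and 2 are cytochromes c. Among them, 4 are isoforms of the testis: Cyct, Cox6b2, Cox7b2 and Cox8c. The mitochondrial members are 10 mRNAs, 2 rRNAs and 19 tRNAs. The libraries came from testes of male C57BL/6 mice, 3 wildtype (Prm2+/+), 3 heterozygous (Prm2+/-) and 3 deficient (Prm2-/-) for protamine 2, the sperm DNA-packing protein. The deficient line was made by gene editing in oocytes, so that every cell of the animal carries the mutation, and the tissue was whole testis freed of its capsule. Ages are not given in the sources used here. Values are normalised counts, the reads assigned to a gene divided by 1 size factor per library, and a log2 fold change (LFC) is on the scale of log2 of the normalised count plus 1.

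Complexes I to IV pass electrons from NADH and succinate to oxygen, complexes I, III and IV pump protons across the inner mitochondrial membrane as they do so, ubiquinone and cytochrome c carry the electrons between them, and complex V uses the proton gradient to make ATP. A small set of subunits, the ribosomal RNAs and the tRNAs are transcribed inside the mitochondrion from both strands of its circular genome as long precursors, from which the tRNAs are cut out, whereas the rest are nuclear genes. Germ cells replace some cytochrome c and complex IV subunits by forms of their own, Cyct for Cycs, Cox6b2 for Cox6b1, Cox7b2 for Cox7b and Cox8c for Cox8a, and mature sperm carry their mitochondria in the midpiece of the tail.

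The libraries held 3629929 to 4490411 recovered counts. Members took 4.01 to 4.84% of them. The Prm2 row held 29716 to 39665 normalised counts in Prm2+/+ and 34660.3 to 42766 in Prm2-/- libraries, so it does not check the labels, and each genotype named here is the one the labels give. Replicate 3 of Prm2+/+ stood apart from the rest, and where it set the LFC of a member described here, the value without it is given too. Fewer cells of a type and less RNA per cell cannot be told apart in bulk tissue. The summed marker genes of elongating spermatids (6 genes) held 203842 to 218478 normalised counts in Prm2+/+ and 196586 to 205998 in Prm2-/-, those of Leydig cells (5 genes) 1711 to 2002 and 1917 to 2193, and those of peritubular cells (4 genes) 293 to 325 in Prm2+/+, 254 to 277 in Prm2+/- and 226 to 271 in Prm2-/-. The elongating spermatid sum is mostly Prm1 (92615 to 111606 in Prm2+/+) and Tnp1 (66174 to 72964). Between Prm2-/- and Prm2+/+ the median LFC of its 6 genes was -0.066. The highest LFC, 2.22 (SE 1.05), was that of Akap4, with 208, 2133 and 194 in Prm2+/+, 1935, 1910 and 272 in Prm2+/- and 2077, 1980 and 2148 in Prm2-/-. Of the 4 epididymal markers, Lcn5 and Adam28 were at 0 in every library. Defb20 held 12.4 in replicate 1 of Prm2+/+, 4.42 in replicate 3 of Prm2+/- and 3.62 in replicate 1 of Prm2-/-. Crisp1 held 3.65 in replicate 2 of Prm2+/-, and both genes were at 0 in the remaining libraries. Of the peritubular genes, 2 of 3 tested (Acta2 and Cnn1) had an unadjusted p under 0.05 between Prm2-/- and Prm2+/+, both lower in Prm2-/-. This held for 7.33% of all tested genes. Tnp1 of the elongating spermatid list did so too, also lower in Prm2-/- (LFC -0.12), and no tested gene of the other marker lists did. No gene of the 10 marker lists was called in any comparison.

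No member was called in any of the 3 comparisons in limma, where a call needed an adjusted p under 0.05 and an LFC beyond 0.5. Of the 124 members that passed the filter on low counts, 0 were called between Prm2-/- and Prm2+/+, against 0.181% of all 14893 tested genes, 0 between Prm2+/- and Prm2+/+ (0.0806% of all), and 0 between Prm2-/- and Prm2+/- (0.175% of all). By edgeR no member was called either. DESeq2 called 1 of 129 tested members (Cox7a2, described with the complex IV genes), between Prm2-/- and Prm2+/+, beside 140 of all 17787 genes it tested. At an unadjusted p under 0.05 the members numbered 11 of 124 between Prm2-/- and Prm2+/+ (7.33% of all tested genes), 3 between Prm2+/- and Prm2+/+ (4.24%) and 12 between Prm2-/- and Prm2+/- (5.44%). These 3 comparisons share libraries in pairs.

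By number, the members without overlap between Prm2-/- and Prm2+/+ lay near the shares over all tested genes. In 11 of 124 members (8.87%), all nuclear, each Prm2-/- library lay above each Prm2+/+ library, which held for 6.92% of all tested genes. In 12 of 124 members (9.68%) each Prm2-/- library lay below each Prm2+/+ library, which held for 7.1% of all. Of these 12, 8 were mitochondrial rRNAs or tRNAs out of 22 tested mt- members. None of the 10 tested mt- mRNAs was in either set. The nuclear ones below were Atp5b, Atp5c1, Ndufv1 and Sdha. Without replicate 3 of Prm2+/+, 27 members lay above (13.7% of all tested genes) and 19 below (14.4%). Between Prm2+/- and Prm2+/+, 5 members lay above (4.88% of all) and 1 below (4.56%). Between Prm2-/- and Prm2+/-, 7 lay above (7.47%) and 13 below (7.25%), and 8 of the latter were again mitochondrial rRNAs or tRNAs.

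**Figure D1:**
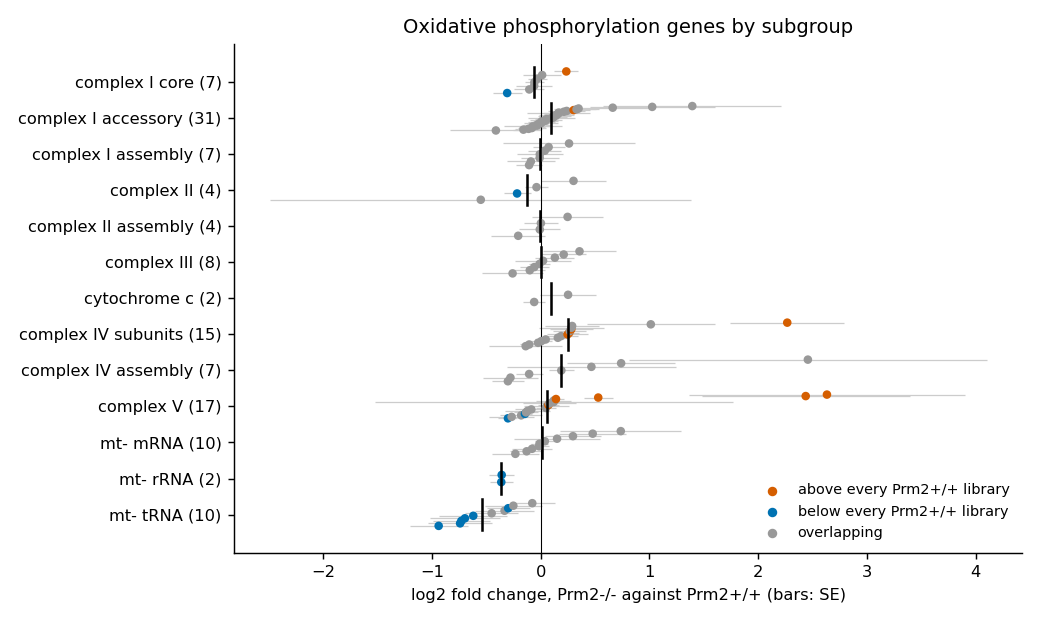
LFC between Prm2-/- and Prm2+/+ (x axis, log2 of the normalised count plus 1, bars show the standard error) of the 124 tested members by subgroup (y axis, number tested in parentheses). Each point is a gene, coloured by whether its 3 Prm2-/- libraries lay above, below or among the 3 Prm2+/+ libraries, and the vertical tick is the subgroup's median. Both mt- rRNAs and all 10 tested mt- tRNAs lie left of 0, and most nuclear members lie near 0.

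The summed mitochondrial mRNAs showed no difference between genotypes beyond the spread of the libraries. The 10 mt- mRNAs took 2.53, 2.55 and 2.01% in Prm2+/+, 2.6, 2.52 and 2.48% in Prm2+/- and 2.75, 2.5 and 2.01% in Prm2-/- of the library counts. The groups overlap, with replicate 3 of Prm2+/+ and replicate 3 of Prm2-/- lowest. The difference of the means, 2.42 ± 0.378% (SD, n = 3) against 2.36 ± 0.306% (SD, n = 3), was smaller than this spread (exact permutation test, two-sided, p = 0.9), and it turned to -0.118 percentage points without replicate 3 of Prm2+/+. Samples of 3 against 3 cannot give a p below 0.1 in this test. The median LFC of the 10 genes was 0.013 between Prm2-/- and Prm2+/+, 0.12 between Prm2+/- and Prm2+/+ and -0.058 between Prm2-/- and Prm2+/-, beside 0.02, 0.014 and -0.0059 over all tested genes. Without replicate 3 of Prm2+/+ the first 2 of these medians turned to -0.038 and -0.033.

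Of the complex I mRNAs, mt-Nd4, a proton-pumping subunit, held 22565, 23694 and 26115 in Prm2+/+, 22894, 23331 and 21911 in Prm2+/- and 25904, 24891 and 20994 in Prm2-/-, and mt-Nd1, at the quinone site, held 12515, 12664 and 10930.3 in Prm2+/+, 12816, 12606 and 14061 in Prm2+/- and 12656, 12136 and 11015 in Prm2-/- (LFC -0.011, SE 0.081, adjusted p = 0.987 between Prm2-/- and Prm2+/+). In both the groups overlap. mt-Nd2 held 4520.3 to 5567 in Prm2+/+ and 3970.4 to 5347 in Prm2-/-, and mt-Nd5 786 to 926 and 627 to 948. mt-Nd3 held 2262, 2269 and 760.2 in Prm2+/+, 2000.0, 1883 and 2380.5 in Prm2+/- and 1958, 1873 and 1454 in Prm2-/-, and mt-Nd6, the one mRNA on the strand opposite to the others, held 4812, 5136 and 1064 in Prm2+/+, 4675, 4679.6 and 4294 in Prm2+/- and 6133, 5584 and 3552 in Prm2-/-. In both, replicate 3 of Prm2+/+ was far below every other library. The LFC of mt-Nd6 between Prm2-/- and Prm2+/+ was 0.74 (SE 0.56, adjusted p = 0.755) and turned to -0.0048 without that library, and that of mt-Nd3 turned from 0.15 to -0.37. mt-Nd5 and mt-Nd6 overlap by 14 bases on opposite strands.

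mt-Cytb, the haem-bearing core of complex III, held 10104, 10016 and 5752 in Prm2+/+, 10662, 9895 and 10016 in Prm2+/- and 12786, 11211 and 7519.5 in Prm2-/- (LFC 0.30, SE 0.25, adjusted p = 0.77 between Prm2-/- and Prm2+/+). Replicate 3 of Prm2+/+ was the lowest library, followed by replicate 3 of Prm2-/-, and the LFC was 0.028 without the former. mt-Co1, the catalytic subunit of complex IV, held 13347, 12510.2 and 11753 in Prm2+/+, 14368, 12815 and 13608 in Prm2+/- and 14357, 12836 and 11512 in Prm2-/-, a difference well inside the spread (LFC 0.037, SE 0.09, adjusted p = 0.928). mt-Co2, which takes electrons from cytochrome c, held 9177, 8711 and 3649 in Prm2+/+, 9475, 9113 and 9851 in Prm2+/- and 9789.6, 9013 and 8932 in Prm2-/-. Again replicate 3 of Prm2+/+ alone was low in mt-Co2, its LFC was 0.48 with and 0.047 without that library, and the other 8 libraries lay between 8711 and 9851. mt-Atp8, a membrane subunit of complex V, held 20079.5, 18949.6 and 14621 in Prm2+/+, 19378, 19187 and 17938 in Prm2+/- and 19035, 17239 and 10436 in Prm2-/- (LFC -0.23, SE 0.22, adjusted p = 0.785). Here the lowest library was replicate 3 of Prm2-/-. Per 100 bases of transcript, the mean over the 9 libraries was 8544 normalised counts for mt-Atp8, 1712 for mt-Nd4 and 46.4 for mt-Nd5, with mt-Atp8 and mt-Nd5 at the ends of the 10 mRNAs. The transcript of mt-Atp8 overlaps that of mt-Atp6 on the same strand, and the 2 cannot be told apart in these reads. mt-Atp6 and some other mt- mRNAs had no row with values, so the mt- mRNA share covers only the 10 that had one. These reads come from 3′ ends, so a level per length depends on where a library primer could bind.

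Both mitochondrial rRNAs and all 10 tested tRNAs had lower mean log2 levels in Prm2-/- than in either other genotype, without any of them passing the threshold. The 2 rRNAs took 0.376, 0.467 and 0.357% in Prm2+/+, 0.424, 0.379 and 0.349% in Prm2+/- and 0.307, 0.315 and 0.301% in Prm2-/- of the library counts. Every Prm2-/- library was below every other library. The means were 0.40 ± 0.0587% in Prm2+/+ and 0.308 ± 0.00664% in Prm2-/- (SD, n = 3 each, exact permutation test, two-sided, p = 0.1, the smallest that 3 against 3 can give, and 0.133 adjusted over the 4 shares tested). mt-Rnr2, the large ribosomal RNA (chrM:1094-2675, GRCm38, plus strand), held 12007, 14799 and 11255 in Prm2+/+, 13354, 11858 and 11125 in Prm2+/- and 9596, 10027 and 9769.8 in Prm2-/-. mt-Rnr1, the small ribosomal RNA (chrM:70-1024, plus strand), held 2881, 3602 and 3076 in Prm2+/+, 3370.3, 3048 and 2728 in Prm2+/- and 2549, 2666 and 2225 in Prm2-/-. Neither overlapped between Prm2-/- and the other genotypes. The LFC between Prm2-/- and Prm2+/+ was -0.36 (SE 0.11, adjusted p = 0.525 in limma) for mt-Rnr2 and -0.36 (SE 0.12, adjusted p = 0.587) for mt-Rnr1. Against Prm2+/- they were -0.30 and -0.30, and between Prm2+/- and Prm2+/+ -0.061 and -0.063.

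Of the 19 tRNAs, 10 passed the filter, and the other 9 held at most 10 counts in any library (mt-Td held 1 count in each library). All 10 had an LFC below 0 between Prm2-/- and Prm2+/+ (median -0.54, from -0.94 in mt-Tm to -0.078 in mt-Te, which turned to 0.03 without replicate 2 of Prm2+/+) and between Prm2-/- and Prm2+/- (median -0.69), whereas between Prm2+/- and Prm2+/+ the median was 0.05. Together the tRNAs took 0.0676, 0.0778 and 0.0727% in Prm2+/+, 0.0496, 0.0708 and 0.0873% in Prm2+/- and 0.0556, 0.0559 and 0.0618% in Prm2-/- of the library counts (exact permutation test between Prm2-/- and Prm2+/+, two-sided, p = 0.1, and 0.133 adjusted over the 4 shares). Prm2-/- lay below Prm2+/+ in each library, while Prm2+/- spanned both, from below every other library in replicate 1 to above every other in replicate 3. The sequences of mt-Tm, mt-Tp and mt-Tq, tRNAs for methionine, proline and glutamine, are shown as 3 of the 4 tRNAs, with mt-Tc, that were lower in each Prm2-/- library than in each library of both other genotypes. Of all tested genes, 7.1% lay below Prm2+/+ in this way and 7.25% below Prm2+/-, and the share below both was not counted. The sequences were read from the GENCODE M21 transcripts (GRCm38, mt-Tm chrM:3845-3913 plus strand, mt-Tp chrM:15356-15422 minus strand, mt-Tq chrM:3772-3842 minus strand) and are written 5′ to 3′ with the anticodon in capitals.
mt-Tm: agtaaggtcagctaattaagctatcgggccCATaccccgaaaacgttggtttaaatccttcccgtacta
mt-Tp: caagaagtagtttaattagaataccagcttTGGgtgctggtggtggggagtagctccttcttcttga
mt-Tq: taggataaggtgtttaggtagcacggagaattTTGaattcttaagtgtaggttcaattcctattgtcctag

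mt-Tm, the tRNA that both starts and extends mitochondrial proteins, held 31.4, 26.8 and 30.9 in Prm2+/+, 22.7, 28.3 and 45.9 in Prm2+/- and 16.3, 16.2 and 12.7 in Prm2-/- (LFC -0.94, SE 0.27, adjusted p = 0.51 between Prm2-/- and Prm2+/+). mt-Tp held 151, 197 and 113 in Prm2+/+, 118, 148 and 209 in Prm2+/- and 81.5, 106 and 84.5 in Prm2-/- (LFC -0.73, SE 0.26, adjusted p = 0.617). mt-Tq held 153, 197 and 149 in Prm2+/+, 114, 152 and 305 in Prm2+/- and 101, 101 and 101 in Prm2-/- (LFC -0.70, SE 0.32, adjusted p = 0.705). In these 3 tRNAs the Prm2-/- libraries lay close together and below all others, and replicate 3 of Prm2+/- was the highest library. mt-Tc held 27.6, 33.2 and 27.6 in Prm2+/+, 22.7, 18.3 and 42.4 in Prm2+/- and 16.3, 17.3 and 18 in Prm2-/- (LFC -0.74, SE 0.30, adjusted p = 0.649), again below all others in Prm2-/-. Its highest Prm2-/- and lowest Prm2+/- library, at 18 and 18.3, lay within 1 normalised count. mt-Ty (LFC -0.62, SE 0.31, adjusted p = 0.718) and mt-Ts1 (LFC -0.30, SE 0.20, adjusted p = 0.75) did not overlap with Prm2+/+, although in mt-Ts1 the highest Prm2-/- and the lowest Prm2+/+ library lay within 1 normalised count. mt-Ts1, which ends 3 bases into mt-Co1 on the opposite strand, had the highest level of the tRNAs per length, 2418 normalised counts per 100 bases (in normalised counts, 1656, 1884 and 2052 in Prm2+/+, 1131, 1773 and 1982 in Prm2+/- and 1415, 1467 and 1656 in Prm2-/-). mt-Te held 450.4, 530.5 and 398 in Prm2+/+, 338, 471 and 597 in Prm2+/- and 420.2, 411 and 468 in Prm2-/-, with overlapping groups, and mt-Ta, mt-Tn and mt-Tl1 overlapped between Prm2-/- and Prm2+/+ too. Of the 10 tested tRNAs, 8 (mt-Ta, mt-Tc, mt-Te, mt-Tn, mt-Tp, mt-Tq, mt-Ts1 and mt-Ty) lie on the minus strand, and mt-Tm and mt-Tl1 on the plus strand. Whether reads were counted by strand is not given in the sources used here. Counts of minus-strand tRNAs therefore cannot be told apart from reads of plus-strand transcripts across them.

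The kit primes at adenine tails, so mitochondrial rRNAs and tRNAs are read only where a tail or an internal run of adenines lets a primer bind, and nuclear copies of mitochondrial DNA can share these reads. Other short or untailed RNAs (5502 rows of snoRNAs, snRNAs, miRNAs, nuclear rRNAs and other small RNAs) took 0.38, 0.377 and 0.44% of the counts in Prm2+/+, 0.37, 0.383 and 0.379% in Prm2+/- and 0.388, 0.376 and 0.374% in Prm2-/-. In these the genotypes overlap, and replicate 3 of Prm2+/+ is the highest. The nuclear rRNA rows of this set held at most 0.00124% of any library, so the set does not describe nuclear rRNA. The marker sum of elongating spermatids, mostly Prm1 and Tnp1, overlapped between Prm2-/- and Prm2+/+. That of peritubular cells was lower in every Prm2-/- than in every Prm2+/+ library. The part of both cell types in the rRNA and tRNA levels was not tested.

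**Figure D2:**
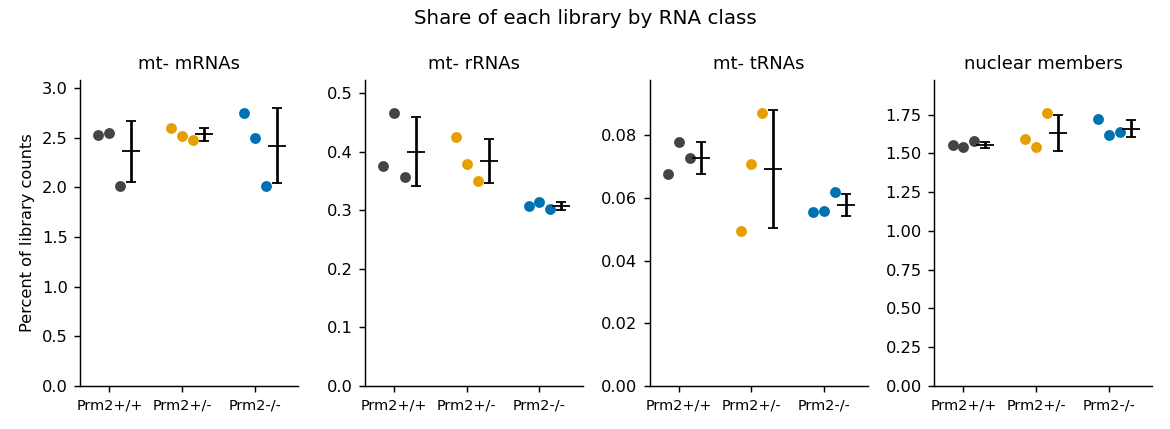
Percent of library counts (y axes, each starting at 0) in the 10 mt- mRNAs, 2 mt- rRNAs, 19 mt- tRNAs and 106 nuclear members, for the 3 genotypes (x axis). Points are libraries and the black bars show mean ± SD (n = 3). The rRNA share is 0.301 to 0.315% in Prm2-/-, below every other library, while the mRNA shares overlap.

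**Figure D3:**
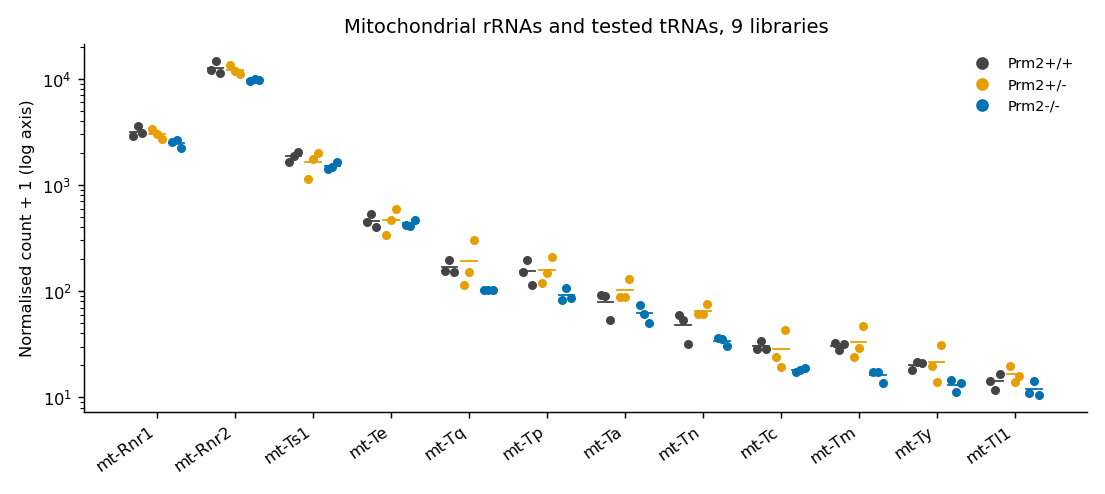
Normalised counts plus 1 (y axis, log scale) of both mitochondrial rRNAs and the 10 tested tRNAs (x axis). Points are the 9 libraries coloured by genotype and short lines are group means. In mt-Rnr1, mt-Rnr2, mt-Tq, mt-Tp, mt-Tc and mt-Tm each Prm2-/- point lies below every other point of that gene.

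The nuclear-encoded members took 1.55, 1.54 and 1.58% in Prm2+/+, 1.6, 1.54 and 1.76% in Prm2+/- and 1.73, 1.62 and 1.64% in Prm2-/- of the library counts. Each Prm2-/- library was above each Prm2+/+ library (exact permutation test, two-sided, p = 0.1, and 0.133 adjusted over the 4 shares), while Prm2+/- ran from within the Prm2+/+ range to above every other library. The median LFC of the 102 tested nuclear members was 0.046 between Prm2-/- and Prm2+/+, 0.063 between Prm2+/- and Prm2+/+ and -0.0012 between Prm2-/- and Prm2+/-, and 91 of the 102 had an LFC between -0.5 and 0.5 in the first comparison. Without Cox7a2, a complex IV gene described further on, the share was 1.53, 1.52 and 1.56% in Prm2+/+, 1.57, 1.52 and 1.67% in Prm2+/- and 1.64, 1.54 and 1.56% in Prm2-/-. These values overlapped between Prm2-/- and Prm2+/+. The difference of the means was 0.104 percentage points with Cox7a2 and 0.0398 without it (exact permutation test, two-sided, p = 0.4). The 11 members beyond -0.5 or 0.5 were Atp5d, Atp5g1, Atp5g2, Cox7a2, Cox7c, Cox11, Ndufa1, Ndufa4 and Sdhd, described by complex or by their separated levels, together with Cox15, a haem-synthesis enzyme (LFC 0.74, SE 0.50, adjusted p = 0.75), and Ndufb3, an accessory subunit of complex I (LFC 0.66, SE 0.36, adjusted p = 0.723). Replicate 3 of Prm2+/+ was the lowest library in both, and without it the LFCs were 0.12 and 0.18.

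In complex I, which takes electrons from NADH, the 7 core subunits had LFCs of -0.31 to 0.24 between Prm2-/- and Prm2+/+. The ends of this range were Ndufv1, the NADH-binding subunit, with 533, 549 and 685 in Prm2+/+, 544, 505 and 608 in Prm2+/- and 517, 481 and 423 in Prm2-/- (LFC -0.31, SE 0.13, adjusted p = 0.677), and Ndufs3, of the arm that leads to the quinone site, with 305, 245 and 297 in Prm2+/+, 299.6, 292 and 276 in Prm2+/- and 356, 328 and 312 in Prm2-/- (LFC 0.24, SE 0.11, adjusted p = 0.713). Neither overlapped between the 2 genotypes. Ndufv2, an iron-sulphur subunit and the core member with the most counts, held 1106 ± 89 in Prm2+/+ and 1082 ± 59.9 in Prm2-/- (SD, n = 3 each). The 31 accessory subunits had a median LFC of 0.097, with 28 of 31 between -0.5 and 0.5. Ndufb8, of the membrane arm and with the most counts among them, held 1753, 1756 and 2274 in Prm2+/+, 1808, 1715 and 1980.2 in Prm2+/- and 1714, 1790.0 and 2135 in Prm2-/-. Ndufa5 had the lowest LFC of the accessory subunits, with 539.7, 752 and 1617 in Prm2+/+, 565, 995 and 1252 in Prm2+/- and 592, 679.9 and 691 in Prm2-/- (LFC -0.41, SE 0.42, adjusted p = 0.796), and the high library, replicate 3 of Prm2+/+, set its sign, since the LFC was 0.035 without it. The 7 tested assembly factors ranged from -0.11 in Ndufaf8 to 0.26 in Ndufaf3 (0.43 without replicate 3 of Prm2+/+). Ndufaf3 held 513, 233 and 494 in Prm2+/+, 739.5, 416 and 261 in Prm2+/- and 1105, 328 and 279.8 in Prm2-/-, and replicate 1 of Prm2-/- was the highest library, without which its LFC was -0.36.

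Complex II, succinate dehydrogenase, passes electrons from the citric acid cycle. Sdha, its flavoprotein, held 127, 113 and 128 in Prm2+/+, 93.9, 119.7 and 108 in Prm2+/- and 101, 108 and 107 in Prm2-/-, below each Prm2+/+ library in Prm2-/- (LFC -0.22, SE 0.12, adjusted p = 0.732). Sdhb, the iron-sulphur subunit, held 959, 844 and 986 in Prm2+/+, 974, 884 and 1040.0 in Prm2+/- and 984, 885 and 845 in Prm2-/- (LFC -0.039, SE 0.10, adjusted p = 0.935), with overlapping groups. Sdhc, a membrane anchor, held 152 to 342 in Prm2+/+ and 258 to 359.5 in Prm2-/- (LFC 0.30, and -0.065 without replicate 3 of Prm2+/+). The 4 assembly factors (Sdhaf1 to Sdhaf4) had LFCs of -0.21 to 0.25, the ends being Sdhaf1 and Sdhaf3 (-0.15 without replicate 3 of Prm2+/+). Complex III, which reduces cytochrome c, had 8 members with LFCs of -0.26 to 0.36 and a median of 0.005. Uqcrq, a small membrane subunit with the most counts of the complex, held 3083, 2929.8 and 3629.8 in Prm2+/+, 3152, 2910.2 and 3504 in Prm2+/- and 3165, 3163 and 3201 in Prm2-/-. The ends of the range were Uqcrh, the hinge protein, with 861, 818 and 1193 in Prm2+/+, 538, 558 and 711 in Prm2+/- and 504, 923 and 1052 in Prm2-/- (LFC -0.26, SE 0.28, adjusted p = 0.808), and Uqcrc2, a core protein, with 266, 234 and 114 in Prm2+/+, 371, 260.3 and 277 in Prm2+/- and 323, 209 and 221 in Prm2-/- (LFC 0.36, SE 0.33, adjusted p = 0.784). Without replicate 3 of Prm2+/+ these LFCs were -0.09 and -0.018. Uqcrh was lower in each Prm2+/- than in each Prm2+/+ library (LFC -0.66, SE 0.28, adjusted p = 0.842), and Prm2-/- overlapped both, with replicate 1 lowest.

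Cox7a2, a gene of complex IV, had the smallest unadjusted p of any member between Prm2-/- and Prm2+/+. It encodes the widely expressed form of a small subunit, whose muscle form is Cox7a1, and lies at chr9:79755361-79759878 (GRCm38, minus strand), where no annotated gene overlaps it. Cox7a2 held 729.8, 688 and 607 in Prm2+/+, 893, 689.7 and 3549 in Prm2+/- and 3287, 3227 and 3214 in Prm2-/-. All 3 Prm2-/- libraries and replicate 3 of Prm2+/- were high, and the other 5 libraries were low, so that Prm2+/- was split. Between Prm2-/- and Prm2+/+ the LFC was 2.27 (SE 0.53, adjusted p = 0.377 in limma), and the call was made with only the 6 libraries of these genotypes (adjusted p = 0.000635), by DESeq2 (adjusted p = 0.0101) and without replicate 3 of Prm2+/- (adjusted p = 0.00068). Between Prm2-/- and Prm2+/- the LFC was 1.32 (SE 0.53, adjusted p = 0.887), and it was called without the same library (adjusted p = 0.00175). Many genes of this pathway have processed pseudogenes, which the authors removed from the table, and reads shared with them cannot be told apart here.

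The other complex IV subunits had smaller LFCs. Cox4i1, the regulatory subunit, held 1291, 1285 and 1123 in Prm2+/+, 1388, 810.2 and 876 in Prm2+/- and 1497, 1407 and 1478 in Prm2-/- (LFC 0.55, SE 0.19, adjusted p = 0.87 between Prm2-/- and Prm2+/-). All Prm2-/- libraries were above all others, replicates 2 and 3 of Prm2+/- were the lowest, and the call against Prm2+/- was made without replicate 1 of Prm2+/- (adjusted p = 0.027). Cox6c, a small membrane subunit, held 1399.7, 1329 and 1200.0 in Prm2+/+, 1568, 1350.1 and 1452 in Prm2+/- and 1672, 1581 and 1458 in Prm2-/- (LFC 0.26, SE 0.093, adjusted p = 0.604 between Prm2-/- and Prm2+/+). Cox6a1 held 1117 ± 108 in Prm2+/+ and 1151 ± 66.1 in Prm2-/- (SD, n = 3 each). Of the isoforms of muscle and lung, Cox7a1 held 12.9 to 20.9 in Prm2+/+ and 18.3 to 22.6 in Prm2-/-. Cox6a2 and Cox8b did not pass the filter, with at most 10.7 and 3.04 normalised counts in any library, and Cox4i2, the lung form of Cox4i1, was at 0 in all 9. Among the 7 tested assembly factors, Cox20, which chaperones the second mitochondrial subunit, held 289.8, 260.4 and 221 in Prm2+/+, 341, 339.8 and 322 in Prm2+/- and 303, 297 and 275 in Prm2-/- (LFC 0.39, SE 0.12, adjusted p = 0.842 between Prm2+/- and Prm2+/+). Each Prm2+/- library was above all others in Cox20, which shares 804 exonic bases with Hnrnpu on the opposite strand. Cox10, a haem-synthesis enzyme, had the lowest LFC between Prm2-/- and Prm2+/+ (LFC -0.30, SE 0.15, adjusted p = 0.716). Cox11, a copper chaperone, held 10.5, 9.64 and 0 in Prm2+/+, 0, 1.83 and 50.4 in Prm2+/- and 17.2, 105 and 9.5 in Prm2-/-, and its LFC of 2.46 had an SE of 1.64 and was 1.3 without replicate 3 of Prm2+/+. Cox11 shares 688 exonic bases with Tom1l1 on the opposite strand, and Tom1l1 held 193, 168 and 167 in Prm2+/+, 177, 169 and 139 in Prm2+/- and 149, 62.9 and 125 in Prm2-/-, lowest in replicate 2 of Prm2-/- where Cox11 was highest. Whether reads were counted by strand is not given in the sources used here, so overlapping genes cannot be told apart.

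Every Atp5 gene was counted with complex V, ATP synthase, by its name alone, Atp5s and Atp5sl included. Of these 17 members, 5 (Atp5d, Atp5e, Atp5g1, Atp5g2 and Atp5h) were higher in each Prm2-/- than in each Prm2+/+ library and 2 (Atp5b and Atp5c1) were lower. Over all tested genes this held for 6.92% and 7.1%. Atp5d and Atp5g1 are among the members with separated levels, described further on. Atp5h, the d subunit of the stalk, held 838, 797 and 889 in Prm2+/+, 847, 818 and 873 in Prm2+/- and 920.1, 923 and 937 in Prm2-/-, with each Prm2-/- library above all others (LFC 0.14, SE 0.071, adjusted p = 0.719 between Prm2-/- and Prm2+/+). Atp5e, the epsilon subunit of the rotor, held 813, 854 and 845 in Prm2+/+, 773, 867 and 972 in Prm2+/- and 859, 901 and 879 in Prm2-/- (LFC 0.071, SE 0.093, adjusted p = 0.843). Atp5c1, the rotating gamma subunit (chr2:10056016-10080510), held 795, 707 and 804 in Prm2+/+, 804, 765 and 875 in Prm2+/- and 646, 618 and 605 in Prm2-/-, lower in each Prm2-/- library than in all others (LFC -0.30, SE 0.087, adjusted p = 0.518 against Prm2+/+ and LFC -0.38, SE 0.087, adjusted p = 0.499 against Prm2+/-). Atp5b, the catalytic beta subunit and the member of the complex with the most counts, held 1606, 1539.9 and 1550.3 in Prm2+/+, 1587, 1530.0 and 1660.3 in Prm2+/- and 1493, 1374 and 1381 in Prm2-/- (LFC -0.15, SE 0.066, adjusted p = 0.7), again with each Prm2-/- library below all others. Atp5g2, 1 of 3 genes for the same mature c-ring protein (chr15:102662864-102672352), held 87.4, 84.7 and 72.9 in Prm2+/+, 119.6, 94.1 and 101 in Prm2+/- and 118, 115 and 121 in Prm2-/-. It was higher in each Prm2-/- and each Prm2+/- library than in each Prm2+/+ library (LFC 0.53, SE 0.13, adjusted p = 0.407 and LFC 0.35, SE 0.13, adjusted p = 0.842). The c-ring gene Atp5g3 held 706 to 1058 in Prm2+/+ and 844 to 1016 in Prm2-/-. Over the 17 members the median LFC was 0.054, with 14 between -0.5 and 0.5. None of these passed the threshold, and an adjusted p above 0.05 does not show that the genotypes were alike.

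All 4 testis isoforms overlapped between Prm2-/- and Prm2+/+, as did the somatic partners Cycs, Cox6b1 and Cox8a, while the somatic Cox7b was higher in each Prm2-/- than in each Prm2+/+ library. Cyct, the testis cytochrome c, held 485, 424 and 224 in Prm2+/+, 418, 479 and 506 in Prm2+/- and 434, 417 and 431 in Prm2-/-, and Cycs, the somatic form, held 204, 197 and 208 in Prm2+/+, 195, 209 and 237 in Prm2+/- and 200.1, 193 and 191 in Prm2-/-. Replicate 3 of Prm2+/+ was low in Cyct only, and the other 8 libraries overlapped. The log2 ratio of Cyct to Cycs was 0.818 ± 0.617 in Prm2+/+, 1.13 ± 0.0547 in Prm2+/- and 1.13 ± 0.0334 in Prm2-/- (SD, n = 3 each, exact permutation test between Prm2-/- and Prm2+/+, two-sided, p = 0.7), and the difference of 0.31 turned to -0.042 without replicate 3 of Prm2+/+.

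Cox6b2 held 1115, 1369.5 and 1262 in Prm2+/+, 589, 1588 and 1231 in Prm2+/- and 1359, 1130.4 and 939.8 in Prm2-/-, and its partner Cox6b1, which faces the intermembrane space near the cytochrome c site, held 224, 182 and 246 in Prm2+/+, 262, 196 and 226 in Prm2+/- and 266, 251 and 223 in Prm2-/-. Replicate 1 of Prm2+/- was the lowest library in Cox6b2, and the ratio differed by -0.33 between Prm2-/- and Prm2+/+ (exact permutation test, p = 0.2, and -0.43 to -0.13 with 1 library left out, the end nearest 0 without replicate 2 of Prm2+/+). Cox7b2 held 1945, 1969.7 and 844 in Prm2+/+, 1693, 1879.9 and 2138 in Prm2+/- and 1791, 1788 and 1814 in Prm2-/-, and Cox7b held 159, 136 and 120.4 in Prm2+/+, 223, 132 and 183 in Prm2+/- and 173, 166 and 163 in Prm2-/-. Their ratio was 3.42 ± 0.548 in Prm2+/+ and 3.42 ± 0.0534 in Prm2-/- (exact permutation test, p = 1), a difference that became -0.31 without replicate 3 of Prm2+/+.

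Cox8c, the testis form of the smallest subunit, held 3687, 3569.6 and 3960.2 in Prm2+/+, 3412, 3528 and 3794 in Prm2+/- and 3784, 3579 and 3657 in Prm2-/-, and Cox8a, the form of most tissues, held 197, 179 and 239 in Prm2+/+, 262, 206 and 226 in Prm2+/- and 277, 222 and 239 in Prm2-/-. The log2 ratio of Cox8c to Cox8a was 4.22, 4.31 and 4.05 in Prm2+/+, 3.7, 4.09 and 4.06 in Prm2+/- and 3.77, 4.0 and 3.93 in Prm2-/-. Each Prm2-/- library was below each Prm2+/+ library, and Prm2+/- overlapped both (difference of means -0.29, exact permutation test, two-sided, p = 0.1, the smallest possible, and 0.4 adjusted over the 4 ratios). The LFC between Prm2-/- and Prm2+/+ was -0.025 (SE 0.066) for Cox8c and 0.27 (SE 0.15) for Cox8a.

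**Figure D4:**
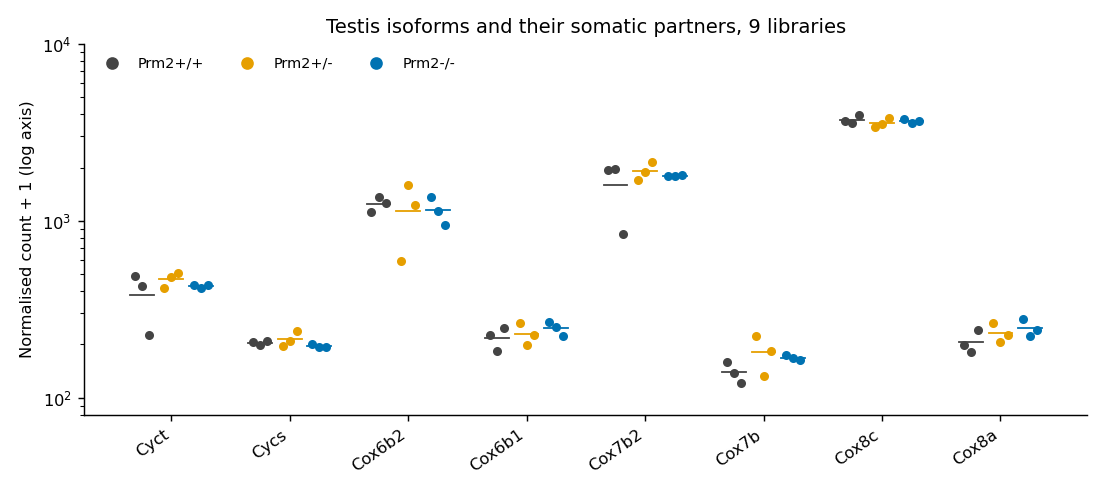
Normalised counts plus 1 (y axis, log scale) of the 4 testis isoforms, each followed by its somatic partner (x axis). Points are the 9 libraries coloured by genotype and short lines are group means. The genotypes overlap in all 4 testis isoforms, and single low libraries stand out in Cyct, Cox6b2 and Cox7b2.

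In some members the libraries fell into separated levels, mostly across genotypes. In 7 of 124 tested members (5.65%) the 9 values of log2(normalised count + 1) held a gap of at least 2 between neighbours, against 11.1% of all tested genes and 22 of the 27 genes called between Prm2-/- and Prm2+/+. All 7 were nuclear. Atp5d, the delta subunit of ATP synthase, held 40.9, 593 and 42 in Prm2+/+, 55.4, 522 and 28.3 in Prm2+/- and 668, 633 and 599 in Prm2-/-. It was high in all 3 Prm2-/- libraries and in replicate 2 of both other genotypes (LFC 2.63, SE 1.27, adjusted p = 0.716 between Prm2-/- and Prm2+/+). Atp5g1, the remaining c-ring gene, held 27.6, 22.5 and 25.4 in Prm2+/+, 30.6, 38.4 and 269.5 in Prm2+/- and 282, 248 and 39.1 in Prm2-/-, high in replicates 1 and 2 of Prm2-/- and in replicate 3 of Prm2+/- (LFC 2.44, SE 0.96, adjusted p = 0.649). Atp5sl, named for its likeness to ATP synthase subunit s, held 3.8, 174 and 228 in Prm2+/+, 157, 175 and 157 in Prm2+/- and 7.24, 160.3 and 184 in Prm2-/-, low in replicate 1 of both Prm2+/+ and Prm2-/- (LFC 0.12, SE 1.65, and 1.11 without replicate 3 of Prm2+/+).

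In 3 more of them a single Prm2+/+ library was low. Ndufa1, an accessory subunit of complex I encoded on the X chromosome, held 273, 246 and 23.2 in Prm2+/+, 275, 269 and 277 in Prm2+/- and 354, 318 and 262 in Prm2-/- (LFC 1.39, SE 0.82, adjusted p = 0.739). Cox7c, a small complex IV subunit, held 1832, 1596 and 313 in Prm2+/+, 2123, 1780.3 and 1894 in Prm2+/- and 2101, 1968 and 1820.5 in Prm2-/- (LFC 1.01, SE 0.59, adjusted p = 0.735). Ndufa4, counted here with complex I by its name although it is now known as a component of complex IV, held 15.2, 91.1 and 69.6 in Prm2+/+, 117, 82.2 and 92.8 in Prm2+/- and 108, 82.2 and 97.1 in Prm2-/- (LFC 1.03, SE 0.58, adjusted p = 0.727). The low library was replicate 3 in Ndufa1 and Cox7c and replicate 1 in Ndufa4. Without replicate 3 of Prm2+/+ the LFC was 0.25 for Ndufa1 and 0.20 for Cox7c. Sdhd, the second membrane anchor of complex II, held 29.5, 96.4 and 0 in Prm2+/+, 10.9, 32.9 and 95.4 in Prm2+/- and 29, 30.4 and 0 in Prm2-/- and was at 0 in replicate 3 of Prm2+/+ and of Prm2-/-. Its LFC of -0.55 (SE 1.94) was -2.47 without replicate 3 of Prm2+/+ and 1.10 without replicate 3 of Prm2-/-. A count of 0 allows up to 3 counts at this depth. Cox7a2 showed a smaller gap of 1.85 by the same measure. The genotypes cannot be compared in such genes by a mean alone.

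**Figure D5:**
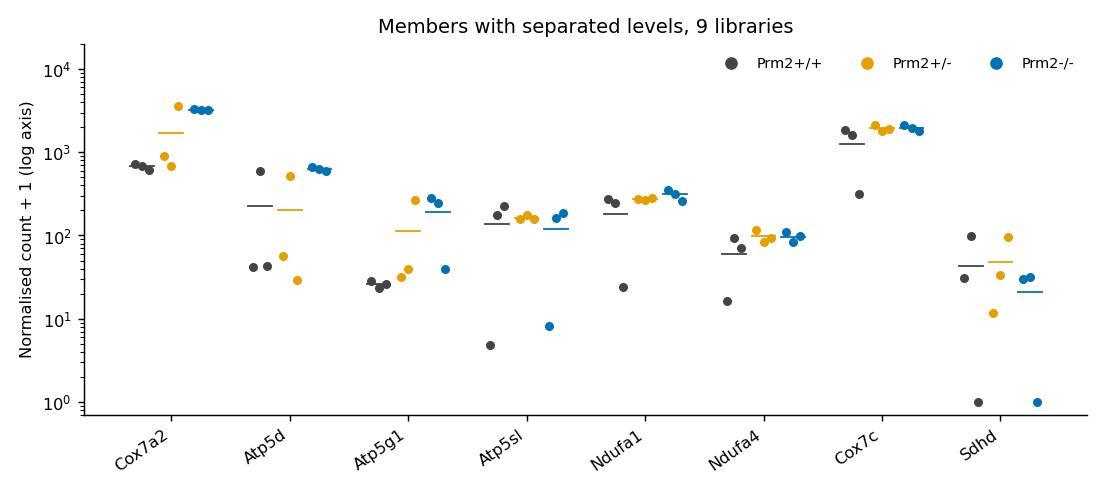
Normalised counts plus 1 (y axis, log scale) of Cox7a2 and the 7 members with a gap of at least 2 on the log2 scale (x axis). Points are the 9 libraries coloured by genotype and short lines are group means. Cox7a2 and Atp5d are high in all Prm2-/- libraries and in some libraries of other genotypes, and Sdhd is at 0 in 1 Prm2+/+ and 1 Prm2-/- library.

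Replicate 3 of Prm2+/+ differed from the other Prm2+/+ libraries in many members. Of the 102 tested nuclear members, 12 were more than 1 log2 unit below the mean of replicates 1 and 2 and 2 more than 1 above, and the corresponding counts for each library of Prm2+/- and Prm2-/- were at most 6 and 4. The members furthest below were Sdhd (-5.77), Cox11 (-3.46), Ndufa1 (-3.43) and Cox7c (-2.45), and of the mt- mRNAs mt-Nd6 (-2.22), mt-Nd3 (-1.57) and mt-Co2 (-1.29). Across the 102 nuclear members, which share this library, the deviation was higher at higher GC content of the last 300 bases of the transcript (Spearman rho = 0.534), and across 12531 other protein-coding genes rho was 0.323. In the 6 libraries of Prm2+/- and Prm2-/-, each against the other libraries of its genotype, rho over the members ran from -0.157 to 0.253. In replicates 1 and 2 of Prm2+/+ it was -0.5501 and -0.3675. Deviations within 1 genotype are tied to each other, since replicate 3 is part of the reference for both. Without replicate 3 of Prm2+/+, 20 of 125 members had an unadjusted p under 0.05 between Prm2-/- and Prm2+/+ (8.37% of all genes tested in that fit), in place of 11 of 124 (7.33%), and 0 were called.

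Promoter motifs, which the choice of genes did not use, were more frequent in the nuclear members than in all genes, each in a minority of the members. RefSeq windows from 250 bases before to 50 after the start (GRCm38.p6) were found for 86 of the 106. The core of the site for NRF1, a factor known for driving respiratory chain genes, spelled GCGCANGCG on either strand, stood in 29.1% of the 86 (25 genes) and in 7.03% of all 27025 genes with a window. The core of the ETS site, to which the factor GABP binds, spelled CCGGAAG on either strand, stood in 29.1% of the 86 (25 genes) and 9.93% of all. The cyclic AMP response element, spelled TGACGTCA on either strand, stood in 5 of the 86 (5.81%) and 2.03% of all. None of the 3 motifs stood in the windows of Cyct, Cox6b2 and Cox7b2, and Cox8c had no window in the table used. The somatic partner Cox7b held none of them either, and of the 11 complex IV subunits with a window other than the testis isoforms, 1 held the NRF1 core, 3 the ETS core and 0 the cyclic AMP response element. Stretches of the 3 somatic partners that held a match are shown as examples, 5′ to 3′ along each gene's minus strand with the match in capitals: Cycs at chr6:50566597-50566655 (NRF1 core), Cox6b1 at chr7:30626111-30626167 (ETS core) and Cox8a at chr19:7217590-7217646 (ETS core). A window can hold more than 1 motif, and a match is a description of the letters and no measured binding. The reference of all genes was not matched for expression in testis or for GC content.
Cycs: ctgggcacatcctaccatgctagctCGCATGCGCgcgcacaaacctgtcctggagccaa
Cox6b1: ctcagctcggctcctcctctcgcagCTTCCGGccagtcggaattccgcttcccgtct
Cox8a: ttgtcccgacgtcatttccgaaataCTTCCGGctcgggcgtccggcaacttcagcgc

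Genes of the same pathway outside the naming rule were not called in any comparison. Of 38 tested partners (cytochrome c1, assembly factors, electron carriers and ADP/ATP carriers), 0 were called between Prm2-/- and Prm2+/+, 5 had an unadjusted p under 0.05 (against 7.33% of all tested genes), 3 of them higher, and the median LFC was 0.12. Cyc1, which hands electrons from complex III to cytochrome c, held 133, 129 and 166 in Prm2+/+, 147, 119.7 and 148 in Prm2+/- and 101, 111 and 107 in Prm2-/- (LFC -0.42, SE 0.14, adjusted p = 0.598), lower in each Prm2-/- library than in all others. Etfb, of the electron carrier for fatty acid oxidation, held 110.2, 117 and 171 in Prm2+/+, 146, 134 and 131 in Prm2+/- and 216, 201 and 177 in Prm2-/- (LFC 0.60, SE 0.18, adjusted p = 0.525), higher in each Prm2-/- library than in all others. Of all tested genes, 7.1% lay below and 6.92% above Prm2+/+ in this way, and 7.25% below and 7.47% above Prm2+/-. Cyc1 and Etfb were named after their values were seen, and how many of the 38 partners separated was not counted. Slc25a31, the ADP/ATP carrier of germ cells, held 396, 380.4 and 350.3 in Prm2+/+, 316, 361 and 388 in Prm2+/- and 352, 324 and 353 in Prm2-/- (LFC -0.13, SE 0.10, adjusted p = 0.76). Etfa, the partner of Etfb, was at 0 in replicate 3 of Prm2+/+. Of 18 tested genes of mitochondrial transcription and RNA processing, 0 had an unadjusted p under 0.05 (median LFC 0.13). Tfam, which packs and transcribes the mitochondrial genome, held 2289, 2078 and 2604 in Prm2+/+, 2175, 2099 and 1989.9 in Prm2+/- and 1988, 2061 and 2045 in Prm2-/- (LFC -0.19, SE 0.088, adjusted p = 0.71), lower in each Prm2-/- than in each Prm2+/+ library. Of 15 tested genes of the citric acid cycle and pyruvate dehydrogenase, 0 were called and 3 had an unadjusted p under 0.05 (again against 7.33%, median LFC 0.10). Pdha2, the testis form of the pyruvate dehydrogenase alpha subunit, held 462, 547 and 381 in Prm2+/+, 471, 521 and 566 in Prm2+/- and 462, 543 and 515 in Prm2-/- (LFC 0.14, SE 0.15, adjusted p = 0.799).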

How the data were processed

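Testis RNA of 3 samples per genotype was made into 3′ end libraries (QuantSeq) by the authors, sequenced as 50-base reads, trimmed (Trim Galore 0.4.5), aligned to GRCm38 (HISAT2 2.1) and counted (StringTie 1.3.3), and pseudogenes were removed. The deposited signal values are counts divided by 1 DESeq2 size factor per sample. Whole counts were recovered from them (every value a whole multiple within 0.01, a weaker sign in replicate 1 of Prm2+/-, whose step lies near 1), and totals ran from 3629929 to 4490411 per sample. Positions came from GENCODE M21. Genes passing the edgeR 4.0.16 filter were fitted in limma 3.58.1 (trend) on log2(value + 1) over the 9 samples by genotype, with Benjamini-Hochberg adjustment over 14893 genes. DESeq2 1.42.0 and edgeR on recovered counts, other scalings, pseudocounts and filters, a replicate block and samples left out were alternatives. Single values had exact permutation tests. The fits were tested on simulated data. The p-values measure the spread between these samples, which the labels give only as separate samples. Members and lists were chosen with earlier results of these data known. Named genes were testis and tissue isoforms with partners, mt- mRNAs and rRNAs, the subgroup ends and most counted genes, the 5 smallest p-values and separated levels. Other genes, among them mt-Tp, mt-Tq, mt-Tc, mt-Ty, Sdha, Cox6c, Atp5e, Atp5h, Ndufb3, Cox15 and the genes outside the rule, were named after their values were seen, and the counts of non-overlapping members without replicate 3 of Prm2+/+ and the nuclear share without Cox7a2 were added after seeing the data.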

Additional observations from a re-analysis of the deposited data

How the results depend on the processing

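The comparisons between Prm2-/- and Prm2+/+ were repeated under 18 alternatives for 55 named genes, and of 987 values 940 kept their direction and side of the threshold, 44 changed sign without a call and 3 passed the threshold (Cox7a2). Members called numbered 1 in place of 0 with only the 6 samples compared and in DESeq2 (Cox7a2 both times), and 0 to 1 when 1 library was left out, and this was again Cox7a2, in the fit lacking the Prm2+/- library in which it was high. Between Prm2-/- and Prm2+/- they numbered 0 to 1 (Cox4i1 when the first and Cox7a2 when the last Prm2+/- library was dropped). For Cox7a2 the adjusted p ran from 0.000635 to 0.793 over all fits. When 1 library was left out, the difference in mt- mRNA share ran from -0.118 to 0.264 percentage points, that of the Cyct to Cycs ratio from -0.042 to 0.52 and that of the Cox7b2 to Cox7b ratio from -0.31 to 0.21. With 1 library left out, the LFC between Prm2-/- and Prm2+/+ changed sign in 27 of the named genes, given with their range over the 9 fits. Leaving out replicate 3 of Prm2+/+ turned Cox7b2 (-0.12 to 0.49), Cox8c (-0.057 to 0.018), Cyct (-0.086 to 0.47), Ndufa5 (-0.76 to 0.035), Ndufb8 (-0.13 to 0.093), Sdhaf3 (-0.15 to 0.54), Sdhb (-0.11 to 0.0089), Sdhc (-0.065 to 0.52), Uqcrc2 (-0.018 to 0.59), Uqcrq (-0.075 to 0.080), mt-Co1 (-0.043 to 0.12), mt-Nd3 (-0.37 to 0.41), mt-Nd4 (-0.075 to 0.077) and mt-Nd6 (-0.0048 to 1.13). Leaving out another library turned Atp5sl (-1.67 to 1.58), Cox6a1 (-0.0017 to 0.12), Ndufaf3 (-0.36 to 0.63), Ndufv2 (-0.095 to 0.019), Sdhaf1 (-0.50 to 0.0029), Sdhaf4 (-0.18 to 0.11), Sdhd (-2.47 to 1.10), Uqcrh (-0.47 to 0.063), mt-Atp8 (-0.40 to 0.032), mt-Nd1 (-0.079 to 0.045), mt-Nd2 (-0.16 to 0.055), mt-Nd5 (-0.26 to 0.033) and mt-Te (-0.18 to 0.030). Besides, Atp5sl was -0.20 in edgeR and -0.21 in DESeq2, and mt-Nd3 -0.0015 in DESeq2. The causes were not tested. Over all genes, calls between Prm2-/- and Prm2+/+, Prm2+/- and Prm2+/+, and Prm2-/- and Prm2+/- numbered 27, 12 and 26, against 140, 66 and 113 in DESeq2, 50, 11 and 52 with only the 6 samples compared, 39, 21 and 38 for any count above 0, and 9, 1 and 11 for at least 10 counts in every sample. Leaving out 1 library gave 28 to 64, 9 to 44 and 23 to 50. With replicate number as a block, members called stayed at 0 in all 3 comparisons and calls over all genes were 15, 6 and 14, while same-numbered samples did not deviate together (9 correlations from -0.037 to 0.042), so the numbers do not pair the samples. With 3 samples a group, no exact test could give a p below 0.1.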
